A study of Mus musculus with 3 samples.

Results

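The genes described here encode the cell's magnesium channels and carriers: the channel kinases Trpm6 and Trpm7, the CNNM proteins Cnnm1 to Cnnm4, the SLC41 carriers Slc41a1 to Slc41a3, and Magt1. They are 10 of the 55487 genes in the table, chosen by name as known magnesium transport genes, and all 10 were found by their GENCODE M21 symbols. RNA came from mpkDCT4a cells, an immortalised mouse line that is labelled as distal convoluted tubule, a late segment of the kidney tubule, and 3 libraries, numbered as replicates 1 to 3, made up the only group. The cells had grown at 37 °C in 2% serum with insulin (5 µg/ml), dexamethasone (50 nM), triiodothyronine (1 nM), epidermal growth factor (10 ng/ml), glucose (20 mM), transferrin, selenate, glutamine and HEPES buffer, in air with 5% CO2. No condition was compared. The data answer which of these genes the line transcribed, in what order, and how far the replicates differed.

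The distal convoluted tubule sets the final amount of magnesium that leaves in the urine. Magnesium enters its cells from the urine side through channels built from TRPM6 and TRPM7, both of which carry a kinase at the end of the channel. It leaves towards the blood by a route that is less well settled, for which CNNM2 and SLC41 proteins have been proposed. Inherited loss of TRPM6 or of CNNM2 lowers magnesium in human blood.

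Levels are given in counts, in CPM, which scale counts to the size of the library, and in TPM, which also divide each count by the length of the gene's annotated exons. Only TPM and ratios per length rank one gene against another. Values with ± are means and SD over the 3 libraries. The libraries held 436983, 482418 and 443192 counts, so 1 count was worth between 2.07 and 2.31 CPM, and a gene without a count in any library may still have had up to 2.20 CPM. Intervals are 95% exact intervals and, like this limit, cover counting error only. Whether each replicate was a culture of its own is not in the labels, and p-values therefore cover no more than the variation among these 3 libraries, part or all of which may be technical. In RNA from whole cultures, fewer cells that express a gene and less of its RNA per cell cannot be told apart.

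Of 12 markers of the distal convoluted tubule 5 were detected, that is, reached a mean of 1 CPM: Wnk4, Cnnm2, Trpm6, Kcnj10 and Egf. The sodium chloride cotransporter Slc12a3, which defines the segment, had no count in any library, nor had Pvalb, Klhl3, Emx1, Sall3, Tmem52b or Calb1. Of the markers of other cell types, 1 of 6 for the thick ascending limb, 2 of 8 for the connecting tubule and principal cell, 3 of 6 for the proximal tubule and 2 of 5 for fibroblasts were detected, and all 13 for intercalated, endothelial and leukocyte cells had no count. Of all protein-coding genes 50.6% were detected. The threshold asks for few counts: Egf had 2, 1 and 0 in replicates 1, 2 and 3, and the fibroblast marker Pdgfrb 1, 2 and 0. At 5 CPM the markers were 4 of 12 for the distal convoluted tubule, 2 of 8 for the connecting tubule and principal cell and 3 of 6 for the proximal tubule. They were 0 of 6 for the thick ascending limb and 1 of 5 for fibroblasts. The summed level was 33.1 to 54.5 TPM for the distal convoluted tubule markers other than Cnnm2 and Trpm6. Wnk4 gave most of it (29.6 to 48.4 TPM). The sum was 67.8 to 93.9 TPM for those of the connecting tubule and principal cell, mainly from Gata3 (58.9 to 87.8 TPM). For those of the proximal tubule it was 114 to 165 TPM, mainly from Aqp1 (69.7 to 114 TPM) and Lrp2 (43.1 to 49.65 TPM). The connecting tubule and principal cell markers Aqp2, Scnn1b, Avpr2 and Trpv5 had no count. Nor had the proximal tubule markers Slc34a1, Slc5a2 and Slc22a6. The sums rest on few genes and lists of different size, so they do not rank the segments.

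Of the 10 magnesium transport genes 9 were detected, beside 50.6% of all 21974 protein-coding genes, and the summed count of the 10 was 217, 233 and 219 in replicates 1, 2 and 3. Magt1 and Trpm7 together gave 76.7% of these counts. Only these 2 genes lay above 31.5 TPM, the median of the 11122 detected protein-coding genes. Cnnm4, Slc41a1, Cnnm2 and Cnnm3 lay between 11.0 and 24.6 TPM, Trpm6, Slc41a3 and Slc41a2 between 1.04 and 4.23 TPM, and Cnnm1 had no count.

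**Figure D1:**
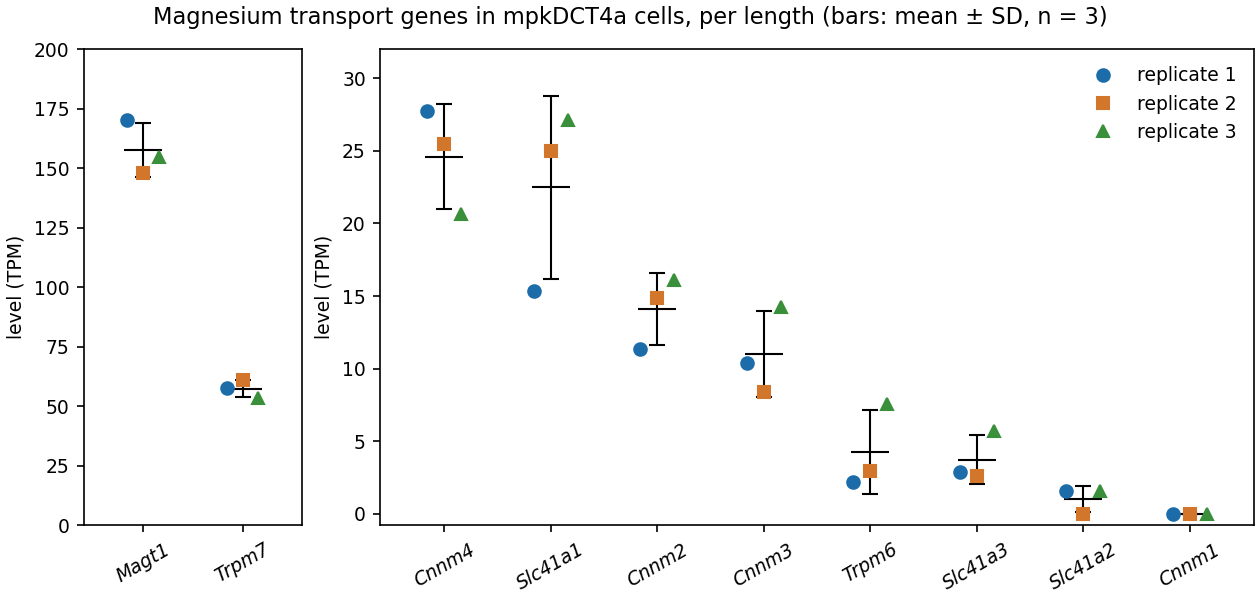
Level of each gene in TPM (y axis, linear, with a separate scale for Magt1 and Trpm7) in replicates 1, 2 and 3 of mpkDCT4a cells, in order of the mean; bars show mean ± SD over the 3 libraries. Magt1 at 158 TPM and Trpm7 at 57.5 TPM stand apart from the other genes, which all lie at or below 27.7 TPM in every library.

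**Figure D2:**
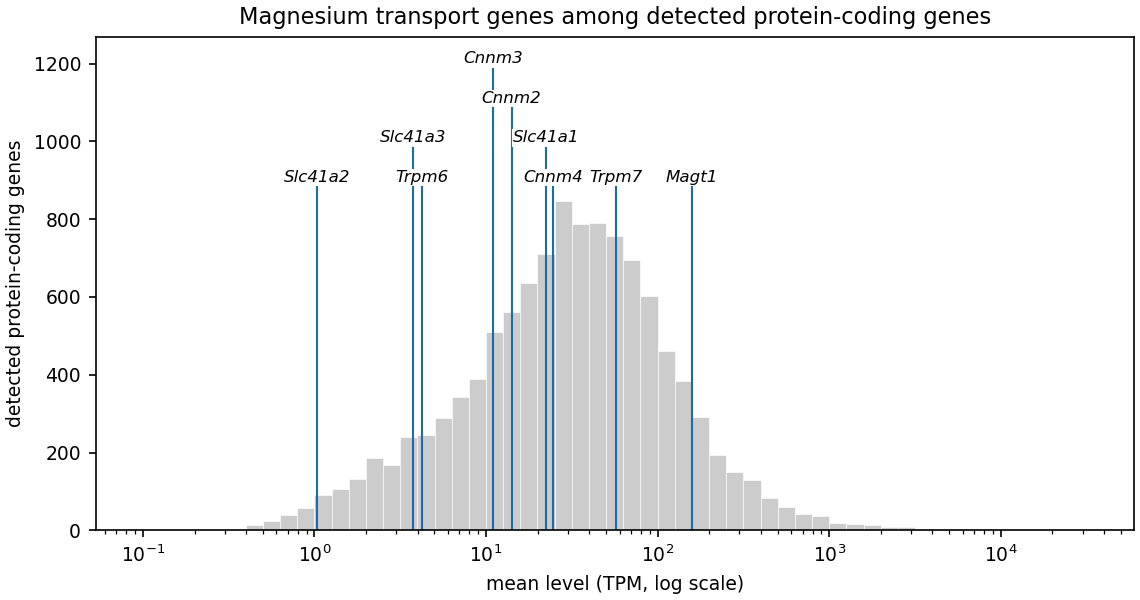
Number of detected protein-coding genes (y axis) by mean level in TPM (x axis, log scale), with a line at the mean of each magnesium transport gene that had a count. Trpm7 and Magt1 lie in the upper part of the distribution, and Trpm6, Slc41a3 and Slc41a2 in its lower tail.

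Trpm6, the channel kinase that is largely restricted to the kidney and intestine (ENSMUSG00000024727, GRCm38 chromosome 19, 18749983 to 18892511, plus strand), had 2, 3 and 7 counts in replicates 1, 2 and 3. Its level was 4.23 ± 2.90 TPM, and 9.98% of the detected protein-coding genes lay below it. Replicate 3 held more of its counts than the other replicates together, and without that library the mean was 2.58 TPM. The summed count of 12 gave 8.84 ± 5.98 CPM, with a counting interval of 4.55 to 15.4 CPM.

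Trpm7, the relative of Trpm6 that nearly all cells carry (ENSMUSG00000027365, chromosome 2, 126791565 to 126876230, minus strand), had 78, 90 and 73 counts. Its level was 57.5 ± 3.71 TPM, above 68.6% of the detected protein-coding genes. Its 3 values, between 53.7 and 61.1 TPM, did not overlap with those of Trpm6, which lay between 2.17 and 7.54 TPM. Per length, Trpm6 had 0.0730 times the counts of Trpm7, with an interval of 0.0372 to 0.130, so Trpm7 stood 13.7-fold higher (7.70 to 26.9). Trpm6 made up 3.62%, 4.66% and 12.3% of the summed TPM of the pair in replicates 1, 2 and 3. The ratio was 0.0436 without replicate 3 and 0.0454 when only coding length was counted.

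No 50-base stretch of the annotated transcripts of Trpm6 or of Trpm7 occurs in a transcript of any other gene. The most alike coding stretch of 75 bases within single exons is shown. It lies in exon 23 of 39 in both genes and encodes part of the last membrane-spanning helix, beside the pore. The stretch, read from GENCODE M21, spans chr19:18830244-18830318 on the plus strand in Trpm6 and chr2:126819838-126819912 on the minus strand in Trpm7. Capitals mark the 14 positions at which the genes differ. The longest identical run of the coding sequences is 23 bases and does not lie wholly within this stretch.
Trpm6: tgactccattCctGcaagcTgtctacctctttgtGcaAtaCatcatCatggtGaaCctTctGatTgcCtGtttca
Trpm7: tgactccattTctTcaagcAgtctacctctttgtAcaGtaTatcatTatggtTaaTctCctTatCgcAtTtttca

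The start regions of the pair differ in their content of CG, the dinucleotide at which mammalian DNA is methylated and that clusters at the promoters of broadly expressed genes. In windows of 300 bases from RefSeq (GRCm38.p6; 250 bases before the start and 50 after it), in which each of the 10 genes matched once, Trpm6 had 9 CG and Trpm7 had 35. Among all 32851 windows 45.8% had at least as many CG as Trpm6 and 6.95% at least as many as Trpm7, and 94.6% had at least 1. The 250 upstream bases of both genes are shown with each CG in capitals, chr19:18749480-18749729 on the plus strand for Trpm6 and chr2:126876262-126876511 on the minus strand for Trpm7.
Trpm6: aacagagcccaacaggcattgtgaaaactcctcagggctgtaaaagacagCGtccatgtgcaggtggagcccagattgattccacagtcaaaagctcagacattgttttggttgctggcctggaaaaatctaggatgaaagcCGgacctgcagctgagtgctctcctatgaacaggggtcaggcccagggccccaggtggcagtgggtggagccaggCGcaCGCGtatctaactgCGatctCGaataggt
Trpm7: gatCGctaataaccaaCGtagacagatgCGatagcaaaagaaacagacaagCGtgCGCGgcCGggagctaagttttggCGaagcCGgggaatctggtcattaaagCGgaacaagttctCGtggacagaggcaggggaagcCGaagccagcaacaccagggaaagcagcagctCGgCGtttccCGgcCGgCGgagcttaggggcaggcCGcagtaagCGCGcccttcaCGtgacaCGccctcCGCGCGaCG

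Among the other genes, Slc41a3 had 8 CG in its window, Slc41a1 19, Cnnm2 21, Slc41a2 24, Magt1 26, Cnnm3 32 and Cnnm4 42. Cnnm1, without a count, had 21, as many as Cnnm2. These letters describe the sequence, and its part in the levels was not tested. The RefSeq start lies 253 bases upstream of the GENCODE M21 gene start for Trpm6, 519 bases downstream of it for Slc41a1 and 14.5 kb downstream of it for Slc41a3, so that the window of Slc41a3 describes a start within the gene. For the other 7 genes both starts lie within 104 bases of each other.

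The CNNM proteins share a membrane domain and a pair of regulatory domains that bind ATP and magnesium, and are debated as exchangers or as regulators of magnesium flow. Their summed level was 49.5, 48.7 and 51.0 TPM in replicates 1, 2 and 3, a mean of 49.7 ± 1.20 TPM. Cnnm4 held 49.6 ± 8.09% of that sum, Cnnm2 28.3 ± 4.72% and Cnnm3 22.1 ± 5.44%.

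Cnnm4, best known from the intestine and from an inherited disorder of human vision and teeth (ENSMUSG00000037408, plus strand of chromosome 1 from 36471620 to 36508764), had 16, 16 and 12 counts. That was 24.6 ± 3.60 TPM, the highest of the family in every library. Cnnm2, the member found on the blood side of the distal convoluted tubule (ENSMUSG00000064105, chromosome 19, 46761596 to 46880192, plus strand), had 7, 10 and 10 counts and 14.1 ± 2.47 TPM. Its values, up to 16.1 TPM, lay below the lowest of Cnnm4, 20.7 TPM. Corrected for length, the Cnnm2 count came to 0.574 of the Cnnm4 count (interval 0.342 to 0.947). With the median length of coding transcripts the ratio was 0.697 and its interval of 0.415 to 1.15 took in no difference.

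Cnnm3, a broadly expressed member (ENSMUSG00000001138, chromosome 1, 36511867 to 36528237, plus strand), had 8, 7 and 11 counts and 11.0 ± 2.98 TPM. Its count was 0.444 of that of Cnnm4 per length (0.263 to 0.738), or 0.625 times (0.370 to 1.04) when only coding length was counted. Against Cnnm3, Cnnm2 stood at 1.29 times, with an interval of 0.725 to 2.30 that took in no difference, and their ranges in TPM overlapped.

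Cnnm1, a member known mainly from the brain (ENSMUSG00000025189, plus strand of chromosome 19 from 43440436 to 43497210), was without a count in all 3 libraries. That leaves room for up to 1.42 TPM, from 3 counts over the 3 libraries. Set against that limit, the Cnnm2 count was 9.96-fold higher per length, and 6.27-fold higher without replicate 2 or without replicate 3. These bounds leave out the counting error of Cnnm2, so the true difference may be smaller.

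Cnnm4 and Cnnm3 lie side by side on the same strand of chromosome 1, with 3.10 kb between the end of Cnnm4 and the start of Cnnm3. Their most alike coding stretch of 75 bases, shown here, differs at 1 position, marked by the capital. The longest identical run of the coding sequences, which continues past the end of the printed stretch, is 62 bases. The stretch lies at chr1:36518952-36519026 in Cnnm3 and at chr1:36497990-36498064 in Cnnm4, in exon 2 of both. In the other 9 of 10 pairs of related genes compared, the longest identical run was 16 to 29 bases.
Cnnm3: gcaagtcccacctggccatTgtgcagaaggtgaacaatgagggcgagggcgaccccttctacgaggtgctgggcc
Cnnm4: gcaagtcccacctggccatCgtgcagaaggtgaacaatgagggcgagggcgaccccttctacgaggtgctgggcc

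The same exon in Cnnm1 and Cnnm2, both on chromosome 19 with 3.26 Mb between them, is less alike. There the most alike stretch, at chr19:43465123-43465197 in Cnnm1 and chr19:46853903-46853977 in Cnnm2, both on the plus strand, differs at 12 positions, again in capitals.
Cnnm1: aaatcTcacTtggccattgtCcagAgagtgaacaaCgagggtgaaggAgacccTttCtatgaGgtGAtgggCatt
Cnnm2: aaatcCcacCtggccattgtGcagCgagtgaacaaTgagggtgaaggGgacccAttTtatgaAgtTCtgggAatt

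A read that lies wholly within the run of 62 bases cannot be given to Cnnm3 or Cnnm4. This touches 13 of the 50-base stretches in each gene's transcripts, against 6413 and 4779 different stretches in all for Cnnm3 and Cnnm4. Of all stretches, 3.01% in Cnnm3 and 2.20% in Cnnm4 also occur in another gene, with the overlapping genes Gm38033 and Gm47280 as the main partners. For Cnnm1 the share was 1.31%, for Magt1 1.55%, for Slc41a3 0.489% and for Slc41a2 0.0189%, and for the remaining 4 genes it was 0.

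SLC41 proteins are distant relatives of bacterial magnesium transporters. Slc41a1, described as a sodium and magnesium exchanger of the plasma membrane (ENSMUSG00000013275, chromosome 1, 131827493 to 131848865, plus strand), had 9, 16 and 16 counts and 22.5 ± 6.28 TPM. It held 77.5%, 90.5% and 78.8% of the family's summed TPM in replicates 1, 2 and 3. Slc41a3, which has been placed in mitochondria (ENSMUSG00000030089, chromosome 6, 90604725 to 90646412, plus strand), had 1, 1 and 2 counts and 3.74 ± 1.71 TPM. Slc41a1 exceeded it 6.07-fold per length, with an interval of 2.20 to 23.4, and 11.1-fold (4.01 to 42.5) when only coding length was counted.

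Slc41a2, a relative whose role is less known (ENSMUSG00000034591, chromosome 10, 83230848 to 83337882, minus strand), had 1, 0 and 1 counts and 1.04 ± 0.900 TPM. It had 0.0448 times the counts of Slc41a1 per length, with an interval of 0.00525 to 0.172. Without replicate 1 the ratio was 0.0287, and without replicate 2 it was 0.0735. With the median length of coding transcripts, which for the 4 coding transcripts of Slc41a2 is 641.5 bases, it was 0.357 and the interval of 0.0419 to 1.38 took in no difference. Slc41a2 and Slc41a3 had too few counts to be ordered, at a ratio of 0.272 with an interval of 0.0246 to 1.90. The ratio was 1.85 (0.167 to 12.9) with the median length of coding transcripts.

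Magt1 (ENSMUSG00000031232, chromosome X, 105968084 to 106011906, minus strand) was first described as a magnesium transporter and is also a subunit of the oligosaccharyltransferase that attaches sugar chains to proteins in the endoplasmic reticulum. It had 95, 90 and 87 counts and 158 ± 11.3 TPM, above 90.4% of the detected protein-coding genes. It exceeded Trpm7, the next in order, 2.73-fold per length (2.29 to 3.27), a ratio of 1.77 with the longest transcript and of 5.74 with coding length. Its paralog Tusc3, which fills the same place in the enzyme, had 31, 38 and 23 counts and 72.1 ± 14.9 TPM. Magt1 had 2.17 times the counts of Tusc3 per length (1.71 to 2.78), and 1.43 times with the median length of coding transcripts (1.13 to 1.84).

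The order by mean TPM was Magt1, Trpm7, Cnnm4, Slc41a1, Cnnm2, Cnnm3, Trpm6, Slc41a3, Slc41a2 and Cnnm1. Of the 9 pairs of neighbours in that order, 6 had an interval of the ratio that took in no difference, and in 5 the ranges over the libraries overlapped. The steps whose intervals did not were those from Magt1 to Trpm7, from Trpm7 to Cnnm4 (2.34-fold, 1.69 to 3.30; 3.57-fold with the median length of coding transcripts) and from Cnnm3 to Trpm6 (2.60-fold, 1.27 to 5.67). The last of these took in no difference with the median length of coding transcripts (1.68-fold, 0.818 to 3.65), and was 6.19-fold (3.02 to 13.5) with coding length. Cnnm4 and Slc41a1 stood at a ratio of 1.09 (0.697 to 1.71), Slc41a1 and Cnnm2 at 1.60 (0.959 to 2.70), and Trpm6 and Slc41a3 at 1.13 (0.343 to 4.81). With coding length the ratio of Slc41a1 to Cnnm2 was 2.60 (1.56 to 4.39), which did not take in no difference, and with the median length of coding transcripts that of Trpm6 to Slc41a3 was 1.75 (0.530 to 7.44). When only coding length was counted, Slc41a1 stood above Cnnm4, Cnnm3 above Cnnm2 and Slc41a3 above Trpm6. With the median length of coding transcripts, Slc41a2 (3.88 TPM) stood above Trpm6 (3.59 TPM) and Slc41a3 (2.06 TPM).

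Ratios were also tested across the libraries, for paralog pairs and for the 9 pairs of neighbours in the order by mean TPM. Some pairs were both. The neighbours were picked from the levels that were then tested, so their direction was largely set by that choice. The number of pairs with the same direction is therefore no measure of how firm the order is. Of the 16 pairs compared, 14 had the same direction in all 3 replicates, and each of these reached p = 0.25 in the two-sided exact sign-flip permutation test, or 0.286 after Benjamini-Hochberg adjustment over the pairs. With 3 libraries the test can give no smaller p. For 1 of the 14, Slc41a2 against Cnnm1, both genes were without a count in replicate 2, where the direction comes from the added 0.5 counts and the exon lengths alone. That leaves 13 pairs with a count for at least 1 of the genes in every library. For some of these the direction rested on the length used. Slc41a2 and Slc41a3 had 1 count each in replicate 1, and their ratio was 0.272, or 1.85 with the median length of coding transcripts. Cnnm2 against Cnnm3 was 1.29, or 0.865 with coding length. The pairs without the same direction in all 3 replicates were Cnnm4 against Slc41a1 (exact permutation p = 0.75) and Trpm6 against Slc41a3 (exact permutation p = 0.5). With the added 0.5 counts, replicate 3 went against the other replicates in both. For Trpm6 against Slc41a3 the added counts set the direction in replicate 2. By TPM, without them, Trpm6 was higher in replicate 2 (2.98 against 2.64) and in replicate 3 (7.5 against 5.7). It was lower in replicate 1 (2.17 against 2.87). The mean log2 ratio of this pair over the libraries, -0.23, included the added counts. That mean and the ratio of summed counts, 1.13, lay on different sides of no difference.

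**Figure D3:**
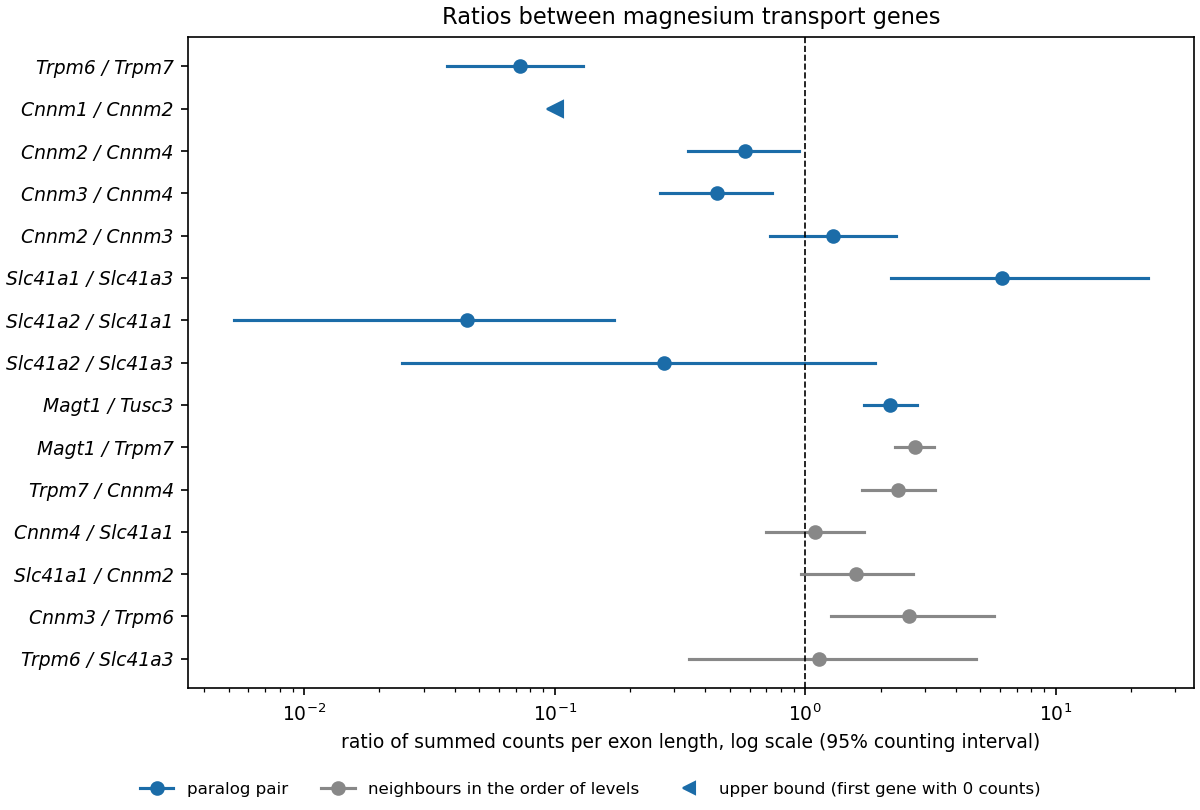
Ratio of summed counts per exon length (x axis, log scale) for pairs of magnesium transport genes, the first gene over the second, with 95% counting intervals as lines. The triangle is an upper bound from 3 counts that leaves out the counting error of Cnnm2, and the dashed line is a ratio of 1. Trpm6 against Trpm7 and Slc41a2 against Slc41a1 lie far to the left of the line, while Cnnm2 against Cnnm3 and Cnnm4 against Slc41a1 lie across it.

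The replicates were also compared gene by gene. An exact multinomial test of each gene's 3 counts against library size called 0 of the 9 detected genes, with Benjamini-Hochberg adjustment over all 12473 genes tested, and 0 at an unadjusted p under 0.05. The background was 0.0401% of genes called and 4.99% at the unadjusted threshold, so that a count of 0 among 9 genes is no result about them and does not show that the replicates were equal. With so few counts, the smallest p the exact test could give before adjustment was 0.101 for Slc41a2 and 0.0102 for Slc41a3. The smallest value was that of Trpm6 (exact multinomial p = 0.233, adjusted p = 0.986). In 8 of the 9 genes the SD between replicates was below the SD that counting error alone gives. For Trpm7 these were 11.8 and 19.7 CPM, for Cnnm2 3.23 and 6.60 CPM, and for Trpm6, the exception, 5.98 and 4.40 CPM. The share of all detected genes with an SD below counting error was not computed. The 8 of 9 is therefore no result about these genes and does not show that their replicates were unusually alike. A chi-square test in place of the exact test also called 0 of the 9 genes.

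**Figure D4:**
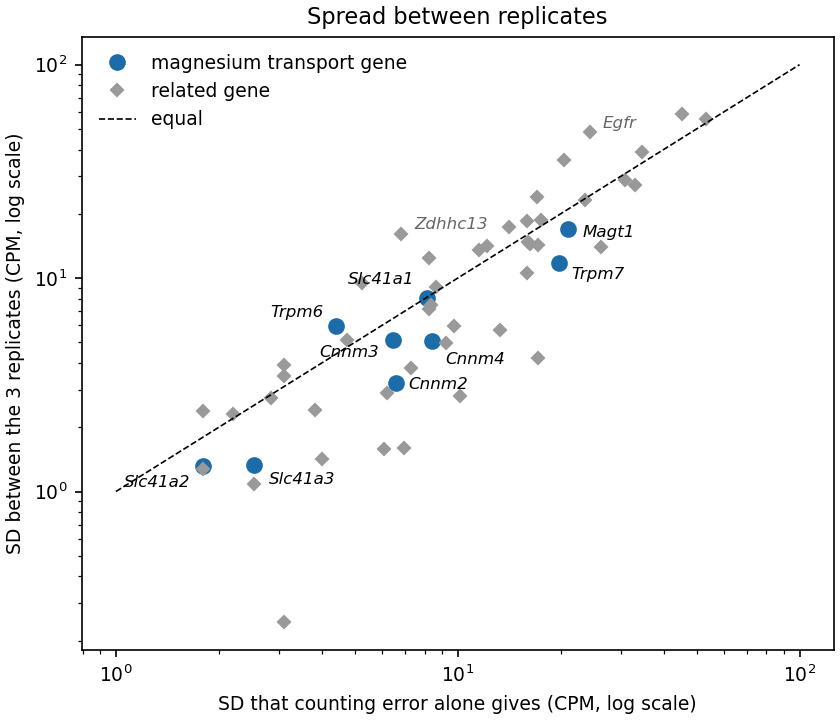
SD between the 3 replicates (y axis, CPM, log scale) against the SD that counting error alone gives (x axis, CPM, log scale) for the detected magnesium transport genes and their detected relatives and partners. Trpm6 is the only magnesium transport gene above the dashed line of equality, at 5.98 against 4.40 CPM.

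Partners of these proteins were expressed to very different degrees. The CNNM proteins are bound by the PRL phosphatases, encoded by Ptp4a1 to Ptp4a3, and by the small GTPase ARL15. All 4 genes were detected. Ptp4a2 had 118, 110 and 117 counts (214 ± 17.95 TPM) and Arl15 53, 65 and 71 counts (145 ± 21.2 TPM), both above each CNNM gene in TPM. Ptp4a3 had 1, 1 and 4 counts (1.76 ± 1.56 TPM). Ptp4a1 had 2 counts in each library, but 2 overlapping gene entries carry this symbol and share 70.0% of its 50-base stretches, so its level is uncertain.

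Among the other 6 TRPM channels, 1 was detected. Trpm4, a calcium-activated channel for sodium and potassium that carries no kinase, had 7, 18 and 17 counts and 10.4 ± 4.34 TPM, so Trpm7 alone gave most of the family's summed level of 72.3 ± 6.33 TPM. Trpm2 had 1 count, and Trpm1, Trpm3, Trpm5 and Trpm8 had none. Of the other alpha-kinases, the family to which the kinases of TRPM6 and TRPM7 belong, Eef2k, the kinase of an elongation factor, had 7, 9 and 7 counts (8.36 ± 0.835 TPM) and Alpk1 had 3, 1 and 1 (1.99 ± 1.44 TPM), while Alpk2 and Alpk3 had none. Proteins reported to bind or modify TRPM6 were all detected: Rack1 at 669.5 ± 46.6 TPM, Phb2 at 188 ± 35.5 TPM and the methionine sulfoxide reductase gene Msrb1 at 64.4 ± 4.23 TPM, beside Arl15.

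All 12 listed genes of the oligosaccharyltransferase that holds MAGT1 were detected, with a median of 176 TPM over the list, against 31.5 TPM for detected protein-coding genes. Stt3b, the catalytic subunit of the form that contains MAGT1 or TUSC3, was at 474 ± 28.0 TPM. Stt3a, the catalytic subunit of the other form, was at 203 ± 11.9 TPM, with its own partners Ostc at 155 ± 26.7 TPM and Krtcap2 at 195 ± 15.6 TPM. The shared subunits were Rpn2 (362 ± 28.2 TPM), Rpn1 (254 ± 9.79 TPM), Ddost (233 ± 27.7 TPM), Dad1 (109 ± 14.9 TPM), Ost4 (97.2 ± 27.3 TPM) and Tmem258 (71.6 ± 17.2 TPM). Of the stretches of Ost4 49.2% occur in another gene, so its level is uncertain.

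Of 15 other genes proposed to carry magnesium or related metals, 12 were detected. The 5 highest were Mmgt1 (117 ± 4.27 TPM), Tusc3, Tmem94 (71.6 ± 6.02 TPM), the mitochondrial magnesium channel gene Mrs2 (57.6 ± 7.53 TPM, with 31.9% of its stretches in other genes) and Zdhhc13 (31.7 ± 24.96 TPM). Zdhhc13 had 19 of its 29 counts in replicate 2 (exact multinomial p = 0.00546, adjusted p = 0.865). Nipal2, Nipal4 and Slc11a1 had no count.

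Genes known to regulate renal magnesium transport ranged from no count to high levels. Of 20 such genes 13 were detected. Among the highest were Pcbd1, which encodes a pterin dehydratase that also serves as a transcriptional cofactor (273 ± 60.7 TPM), Atp1b1, a beta subunit of the sodium pump (157 ± 26.4 TPM), and Egfr, the receptor through which epidermal growth factor raises TRPM6 activity (88.8 ± 15.4 TPM). Of the stretches of Atp1b1 15.8% occur in another gene. Fxyd2, Kcna1, Cldn10, Cldn16, Slc12a3 and Umod were among the genes without a count. Over the 7 lists, 45 of 62 genes that are not themselves among the 10 were detected, beside 50.6% of protein-coding genes.

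**Figure D5:**
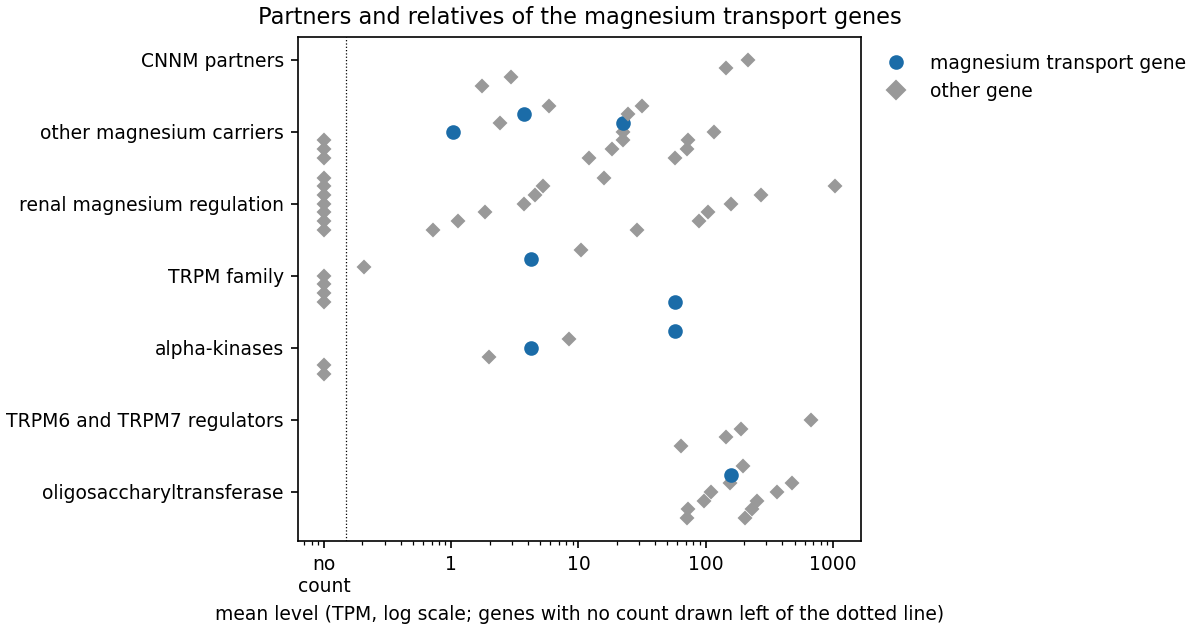
Mean level in TPM (x axis, log scale; genes without a count are drawn left of the dotted line) of the genes of 7 lists of relatives, partners and regulators (rows), with the magnesium transport genes as blue circles and the other genes as grey diamonds. The oligosaccharyltransferase genes lie close together around Magt1, whereas the renal regulators spread from no count to high levels. The TRPM family spreads from no count to 57.5 TPM, the level of Trpm7.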

How the data were processed

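The deposited table holds whole-number read counts per Ensembl gene for 3 libraries made from 500 ng of total RNA depleted of ribosomal RNA, per the labels. The submitters' processing notes name STAR, HTSeq and the mm10 build, without their roles. The sources used here give no versions, no strand setting and no rule for reads that match several places. Reads in overlapping or near-identical genes may therefore be lost or shared. Columns were assigned by the number that ends their names.

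GENCODE M21 gave symbols and exon lengths for 55227 of 55487 identifiers; the other 260 held 313 counts. CPM used TMM library sizes (edgeR 4.0.16, R 4.3.3, factors 0.992, 1.00 and 1.01), and TPM the union of annotated exons. The exact multinomial test gave way to a chi-square test above 1000 summed counts and was tested on simulated data. Pair ratios per library used counts + 0.5, and their intervals are Clopper-Pearson. Tests ran in Python 3.11.15 with scipy 1.17.1, numpy 2.4.6 and pandas 2.3.3, and figures in matplotlib 3.10.9. DESeq2 1.42.0 gave alternative size factors.

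The genes, lists and tests were chosen with earlier results of these data known. All 10 genes are named, every gene of lists with up to 12 genes, and of longer lists the 5 highest and those without a count, except that some genes of the list of renal regulators are not reported here by name.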

Additional observations from a re-analysis of the deposited data

How the results depend on the processing

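No paired analysis was possible because the labels give 1 group. Size factors of DESeq2 or library totals moved none of the 10 levels in CPM by more than the SD between replicates. The length used for TPM moved most: the summed level of the 10 genes was 296 TPM, and 267 TPM with the longest transcript, 202 TPM with the median coding transcript and 344 TPM with coding length. Of 30 single-gene levels in TPM under these lengths 15 moved by more than their SD. A lower threshold of 0.5 CPM kept the 9 detected genes, as it must, and added no other. At 5 CPM 7 remained, beside 10256 of all 55487 genes, coding or not. The share of protein-coding genes at 5 CPM was not computed. A count in every library was held by 8, beside 46.6% of all protein-coding genes. Slc41a2 was detected with a summed count of 2. Leaving out single replicates kept 9 detected, and the number of all genes that differed between replicates, 5 with all libraries, was 1 without replicate 1 and 3 without replicate 2 or replicate 3. None of the 9 genes with a count was called under any alternative, and Cnnm1, without a count, could not be tested. Of the 16 pairs, between 13 and 16 had 1 direction in all libraries of a setting under the alternatives, with Slc41a2 against Cnnm1, whose direction in replicate 2 was not measured, among the 16. This count asks only whether libraries agreed within a setting, and also holds pairs whose direction turned. Slc41a2 against Slc41a3, at 0.272, was at 1.85 with the median length of coding transcripts. The 16 was reached without replicate 3, where fewer libraries had to agree. Depth limits the genes with few counts: the counting interval was 4.55 to 15.4 CPM for Trpm6, 0.178 to 5.30 CPM for Slc41a2 and 0.800 to 7.52 CPM for Slc41a3.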
